A study of Mus musculus with 2 samples.

Results

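The CDK inhibitor and pocket protein genes are 10 genes that hold cells in G1: the CIP/KIP inhibitors Cdkn1a, Cdkn1b and Cdkn1c, the INK4 inhibitors Cdkn2a, Cdkn2b, Cdkn2c and Cdkn2d, and the retinoblastoma family Rb1, Rbl1 and Rbl2. They were chosen by name, and all 10 were found among the 54531 genes of the deposited table. Their mRNA was read in cells that the labels describe as haematopoietic stem cells (HSCs) sorted from mouse bone marrow. By the genotype labels, the control library came from Angptl2fl/fl mice, in which the gene of the secreted protein ANGPTL2 is flanked by loxP sites, and the deletion library from Cdh5-Cre;Angptl2fl/fl mice. By these labels both genotypes share the floxed alleles, and the second adds a Cre driven by the promoter of Cdh5, a gene of endothelial cells, which the labels describe as an endothelial deletion. Cdh5 is also active in endothelium that gives rise to blood cells in the embryo, and whether Angptl2 was intact in the sorted HSCs is not stated in the labels. The description and column name of the control library read Cdh5_Cre, against its title and genotype, so neither whether its mice carried Cre nor whether they carried the floxed alleles is settled. The samples are called control HSCs and deletion HSCs below. Neither the age nor the number of the mice is given in the sources used here.

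There was 1 library per genotype, so no difference below has a replicate check and no p-value is given. Values are FPKM, fragments per kilobase of gene and per 1000000 fragments. FPKM times exon length fell within 0.02 of a whole number of fragments for 96.5% of detected genes in control HSCs and 96.1% in deletion HSCs. This put the depths at 17378600 and 16843100 fragments. Intervals are exact 95% intervals from those fragments and cover counting error only. RNA was read in bulk, where fewer cells of a type and less RNA per cell cannot be told apart. Angptl2 itself stood at 0.27 FPKM in control and 0.18 FPKM in deletion HSCs, too low to check the labels. Cdh5 was at 0.027 FPKM in control HSCs and at 0 in deletion HSCs.

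Cells leave G1 when cyclin-dependent kinases (CDKs) phosphorylate the pocket proteins, which otherwise bind E2F transcription factors and silence their targets. INK4 proteins block CDK4 and CDK6, while CIP/KIP proteins act on a wider range of cyclin-CDK complexes, among them cyclin E with CDK2. In HSCs, members of both inhibitor families and all pocket proteins are known for limiting entry into the cycle, and p57, the product of Cdkn1c, is known for its role in HSC quiescence.

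Pocket proteins and E2F factors bind promoters with E2F elements, so the members' own promoters were searched for the 7-letter E2F core in 4 spellings, on both strands of the 250 bases before each start (RefSeq, GRCm38.p6). Of all 32851 windows, TTCCCGC was found in 3.82%, TTGGCGC was found in 1.97%, TTGCCGC was found in 1.36%, TTCGCGC was found in 1.28%, and at least 1 of the 4 in 7.89%. Of 8 members in the promoter table, 3 held a match, in 3 of 11 windows, with no match overlapping another. All 3 matches are shown. Rb1 and Cdkn1c had no window in the promoter table. Whether a match goes with the level or ratio of a gene was not tested. The capitals mark the match, on the strand of the gene, 5′ to 3′.
Rbl1, chr2:157204535-157204575, minus strand, match 17 to 11 bases before the start: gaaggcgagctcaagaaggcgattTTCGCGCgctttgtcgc
Cdkn2c, chr4:109666757-109666805, minus strand, match 25 to 19 bases before the start: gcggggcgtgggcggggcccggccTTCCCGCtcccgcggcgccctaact
Cdkn2a, chr4:89294687-89294741, minus strand, match 98 to 92 bases before the upstream start, from which p19ARF is made: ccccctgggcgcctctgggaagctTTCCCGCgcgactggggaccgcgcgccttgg
The windows of Cdkn1a, Cdkn1b, Cdkn2b, Cdkn2d and Rbl2 held none of these letters. A match is a stretch of letters and not a measured binding site.

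Of the 10 genes, 8 had a mean of at least 1 FPKM, and Cdkn2a and Cdkn2b did not. On the log2(FPKM + 1) scale, which understates the difference of low genes, 2 of the 8 were higher in deletion HSCs (Cdkn2c and Rbl1) and 6 lower, where 48.4% of all genes were higher and 51.6% lower. None of the 8 was 2-fold or more apart, against 5.86% of 12325 genes at that mean (2.47% higher and 3.38% lower). Their median log2 ratio was -0.062 and that of all 12325 genes -0.011, and 7 of the 8 lay between the quartiles of all genes, -0.20 and 0.18. Mitochondrial transcripts held 8.91% of summed FPKM in control HSCs and 13.73% in deletion HSCs, and the FPKM totals were 379052 and 419943. With FPKM scaled without mitochondrial transcripts, the median of the 8 was 0.0098, above 0, and that of all genes 0.058.

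**Figure D1:**
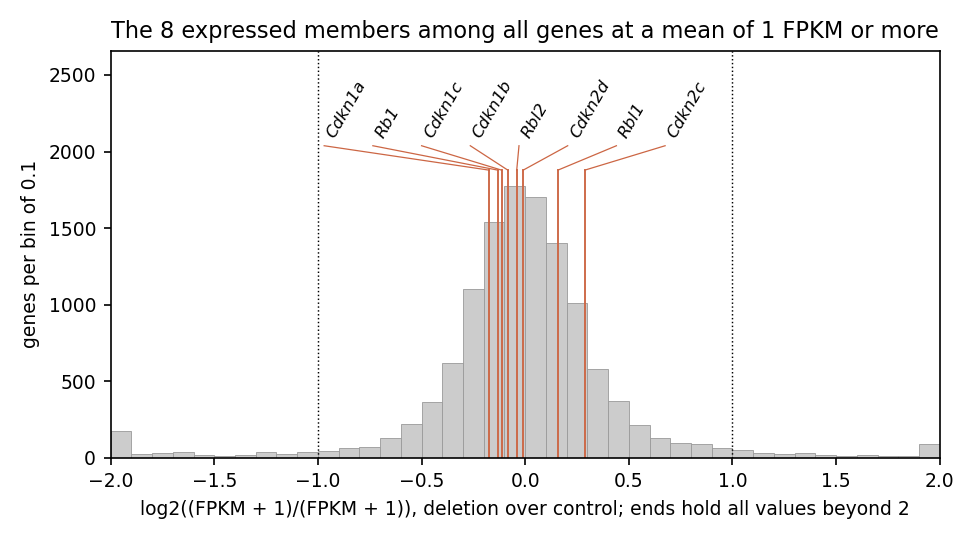
Histogram of the log2((FPKM + 1)/(FPKM + 1)) ratio, deletion over control, for 12325 genes in bins of 0.1, with a vertical line for each of the 8 expressed members and dotted lines at 2-fold. The members run from -0.17 (Cdkn1a) to 0.29 (Cdkn2c), inside the bulk of the distribution.

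The CIP/KIP genes were expressed at unequal levels. Cdkn1a (chromosome 17, 29090976 to 29100727, plus strand, GRCm38) encodes p21, which p53 induces after DNA damage. It stood at 19.5 FPKM in control HSCs (1203 fragments) and 17.2 FPKM in deletion HSCs (1027 fragments). The log2 ratio was -0.18 without a pseudocount and -0.17 with it, with a counting interval of -0.30 to -0.062. The interval lay below 0, but included equality with FPKM scaled without mitochondrial transcripts, and 53.5% of all genes had a larger ratio in either direction. A gene model on the opposite strand, AC167363.2, shares 273 bases of its exons and had 27 and 15 fragments. The sources used here do not say whether counting used strand.

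Cdkn1b (chromosome 6, 134920401 to 134925513, plus strand) encodes p27, which accumulates in resting cells. It stood at 17.4 FPKM in control HSCs and 16.4 FPKM in deletion HSCs, from 1377 and 1255 fragments. The interval of its log2 ratio, -0.20 to 0.023, included equality, so no difference was detectable at this depth.

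Cdkn1c (chromosome 7, 143458339 to 143461050, minus strand) was the least abundant expressed member. It stood at 1.47 FPKM in control HSCs and 1.28 FPKM in deletion HSCs, from 52 and 44 fragments. It made up 3.83% of the CIP/KIP sum of 38.4 FPKM in control HSCs and 3.68% of 34.8 FPKM in deletion HSCs. Only 7.19% of the 12325 genes had a lower mean. The interval of its log2 ratio spanned -0.81 to 0.41, and a difference of that size in either direction was not detectable. An antisense gene model, Gm44732, covers 625 of its 2039 exon bases and was listed at 0 in both libraries.

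The INK4 sum was carried by Cdkn2d and Cdkn2c. Cdkn2d (chromosome 9, 21288410 to 21291407, minus strand), which encodes p19INK4D, stood at 18.3 FPKM in control HSCs and 18.2 FPKM in deletion HSCs, from 501 and 482 fragments. Its log2 ratio was -0.010, with an interval of -0.19 to 0.17 that included equality. Of all genes, 97.2% had a larger ratio in either direction, and its sign turned to above 0 (0.0012 to 0.065) when ratios were centred on their median or scaled without mitochondrial transcripts.

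Cdkn2c (chromosome 4, 109660876 to 109667189, minus strand) encodes p18INK4C, known for restraining HSC self-renewal. It stood at 11.0 FPKM in control HSCs and 13.7 FPKM in deletion HSCs, from 515 and 619 fragments. It was 1.24-fold higher in deletion HSCs, the largest log2 difference among the 8 expressed members on the deposited scale, though not with FPKM rescaled to a common total, where it was 0.16 and that of Cdkn1a -0.32. The log2 ratio without a pseudocount was 0.31, with a counting interval of 0.14 to 0.48, and 0.29 with the pseudocount. Of all genes, 32.5% had a larger ratio. Its share of the INK4 sum was 37.5% in control HSCs and 42.9% in deletion HSCs.

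Cdkn2a and Cdkn2b lie side by side on chromosome 4, at 89274471 to 89294653 and 89306299 to 89311039, both on the minus strand. Cdkn2a encodes p16INK4A and, from another first exon and reading frame, p19ARF, and the gene-level table cannot separate these transcripts. Cdkn2b encodes p15INK4B. Both genes are known for staying silent in young HSCs under Polycomb repression. Cdkn2a had 1 fragment in control HSCs (0.049 FPKM) and was at 0 in deletion HSCs. A count of 0 allows up to 3 fragments, or 0.15 FPKM. Cdkn2b was listed at 0 in both, which allows up to 0.12 FPKM in control and 0.13 FPKM in deletion HSCs. No fold is given for either gene, since both libraries lie under that limit.

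**Figure D2:**
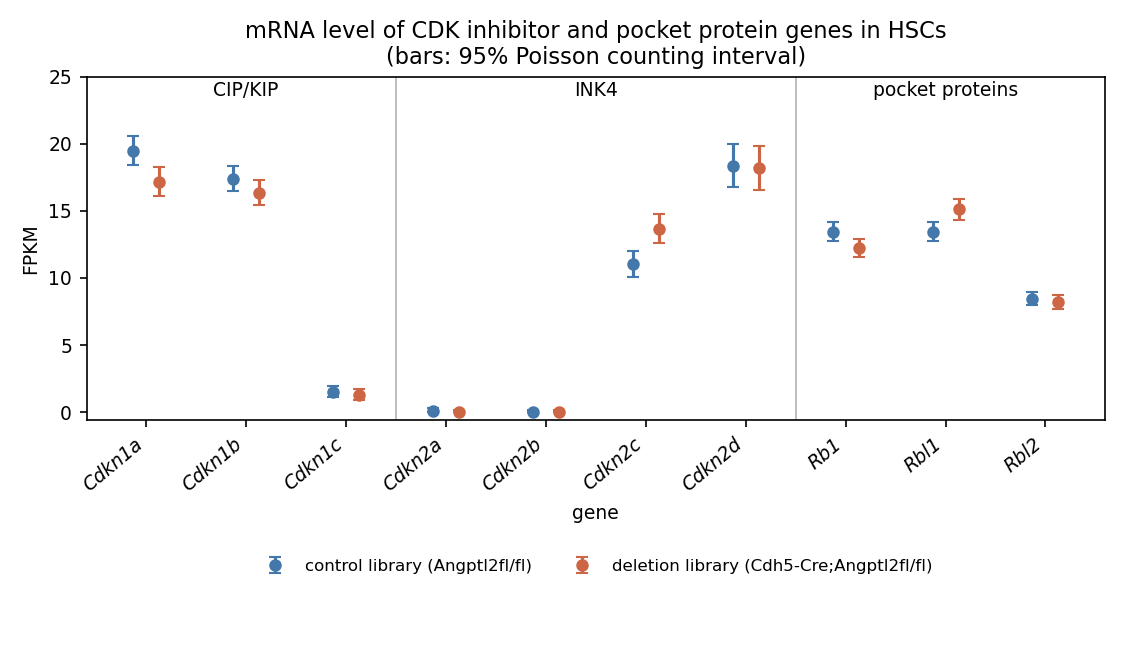
FPKM of the 10 genes in control HSCs (blue) and deletion HSCs (orange), with 95% Poisson intervals of the fragment counts as bars. Cdkn1a, Cdkn1b and Cdkn2d lie between 16.4 and 19.5 FPKM in both libraries, Cdkn1c lies at 1.28 and 1.47 FPKM, and Cdkn2a and Cdkn2b lie at or next to 0.

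Among the pocket proteins, Rb1 and Rbl1 had nearly equal levels in control HSCs and unequal levels in deletion HSCs. Rb1 (chromosome 14, 73183673 to 73325822, minus strand) encodes the retinoblastoma protein, which binds the activating E2F factors. It stood at 13.5 FPKM in control HSCs and 12.2 FPKM in deletion HSCs, from 1407 and 1236 fragments. The log2 ratio without a pseudocount was -0.14, with an interval of -0.25 to -0.031, which also included equality with FPKM scaled without mitochondrial transcripts. Exons of Rcbtb2 and Lpar6, on the opposite strand, share 488 and 408 bases with those of Rb1. Rcbtb2 had 399 and 371 fragments over its whole length, and Lpar6 108 and 146.

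Rbl1 (chromosome 2, 157145893 to 157204534, minus strand) encodes p107, which is itself an E2F target and is known for being abundant in cycling cells. It stood at 13.4 FPKM in control HSCs and 15.1 FPKM in deletion HSCs, from 1400 and 1525 fragments. It was 1.12-fold higher, with a log2 ratio without a pseudocount of 0.17 and an interval of 0.063 to 0.27. Rescaled to a common total, the log2 ratio was 0.020, while the median of all genes moved to -0.15.

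Rbl2 (chromosome 8, 91070057 to 91123844, plus strand) encodes p130, the pocket protein of resting cells, which with E2F4 and the MuvB proteins forms the repressive DREAM complex. It stood at 8.47 FPKM in control HSCs and 8.20 FPKM in deletion HSCs, from 1112 and 1044 fragments. The interval of -0.17 to 0.077 included equality, and the log2 ratio of -0.041 turned to 0.029 when FPKM was scaled without mitochondrial transcripts. Aktip and Gm45464, on the opposite strand, share 693 and 892 exon bases with Rbl2 and had 69 and 8 fragments in control HSCs and 113 and 0 in deletion HSCs. Summed over the 3 genes, pocket protein mRNA was level, at 35.4 FPKM in control and 35.5 FPKM in deletion HSCs.

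Counting intervals excluded equality for 4 of the 8 genes, Cdkn2c and Rbl1 above 0 and Cdkn1a and Rb1 below 0. That share is near the background, since the intervals of 56.8% of 11708 genes with whole fragments excluded equality, 26.8% above and 30.0% below. Duplicate reads are not separate molecules, and their share is not known here. With the fragments divided by 6, a trial value and not a measured duplication, the interval of every one of the 8 genes included equality, while 18.2% of all genes still excluded it. With FPKM rescaled to a common total, no member lay above 0 by its interval and 4 lay below, namely Cdkn1a, Cdkn1b, Rb1 and Rbl2. With FPKM scaled without mitochondrial transcripts, Cdkn2c and Rbl1 lay above 0 and no member below.

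**Figure D3:**
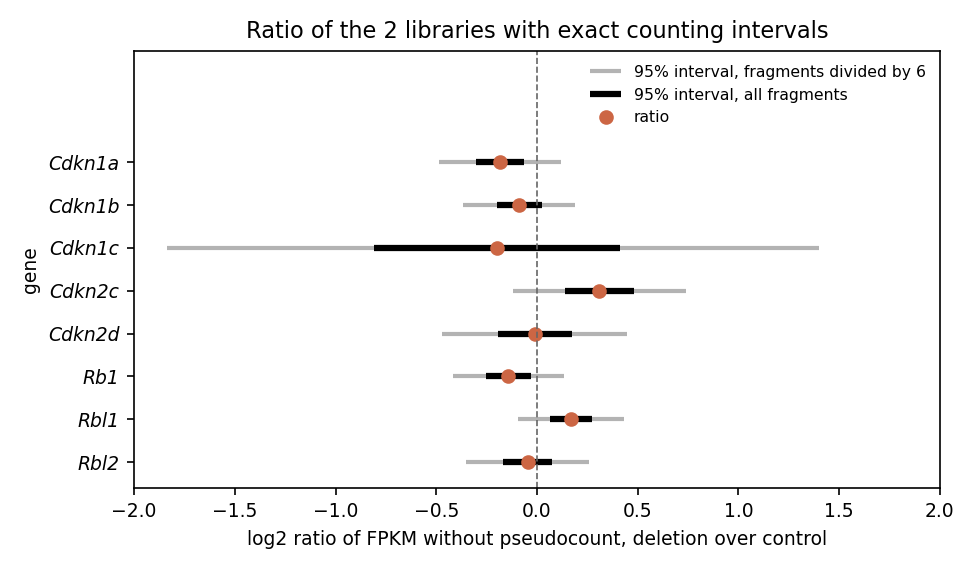
Log2 ratio of FPKM without a pseudocount, deletion over control, for the 8 expressed genes, with exact 95% counting intervals from all fragments (black) and from fragments divided by 6 (grey). The black intervals of Cdkn2c and Rbl1 lie above 0 and those of Cdkn1a and Rb1 below, and all grey intervals cross 0.

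The ratio of 2 members inside a library does not depend on how the libraries are scaled. The pairs below were picked with their values known, and their ratios are a description that restates the values above. Rbl1 to Rb1 was 0.999 in control HSCs and 1.24 in deletion HSCs. Rbl1 to Rbl2 was 1.59 and 1.84, and Rb1 to Rbl2 was 1.59 and 1.49. Among the inhibitors, Cdkn2c to Cdkn2d was 0.602 in control HSCs and 0.753 in deletion HSCs. Cdkn2c to Cdkn1a was 0.566 and 0.797, and Cdkn1a to Cdkn1b was 1.12 and 1.05. With all fragments, the interval of the log2 change was 0.16 to 0.46 for Rbl1 to Rb1 and 0.051 to 0.38 for Rbl1 to Rbl2. It was 0.069 to 0.57 for Cdkn2c to Cdkn2d and 0.28 to 0.70 for Cdkn2c to Cdkn1a. The intervals of Rb1 to Rbl2 and Cdkn1a to Cdkn1b included equality. With fragments divided by 6, the counting intervals of the change in all 6 pairs included equality.

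In order of level in control HSCs, Cdkn1a, Cdkn2d and Cdkn1b were followed by Rb1, Rbl1, Cdkn2c, Rbl2 and Cdkn1c. The Poisson intervals of Cdkn2d (16.8 to 20.0 FPKM) overlapped those of Cdkn1a (18.4 to 20.6) and Cdkn1b (16.5 to 18.4), and those of Rb1 and Rbl1 overlapped, while the intervals of Cdkn2c (10.1 to 12.0), Rbl2 (7.98 to 8.98) and Cdkn1c (1.10 to 1.92) stood apart. In the deletion library the order was Cdkn2d, Cdkn1a, Cdkn1b, Rbl1, Cdkn2c, Rb1, Rbl2 and Cdkn1c. There each neighbour's interval overlapped the next down to Rb1 (11.5 to 12.9), and Rbl2 (7.71 to 8.71) and Cdkn1c (0.93 to 1.72) stood apart. Rb1 thus stood above Cdkn2c in control HSCs and below it in deletion HSCs.

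The kinases that the INK4 proteins bind were far more abundant as mRNA than the inhibitors. Cdk4 and Cdk6 summed to 166 FPKM in control HSCs and 180 FPKM in deletion HSCs, against INK4 sums of 29.4 and 31.9 FPKM. The ratio of these sums was 5.66 and 5.63, nearly the same in both. The ratio of the CIP/KIP sum to the INK4 sum was 1.30 in control HSCs and 1.09 in deletion HSCs. These are ratios of mRNA and not of protein.

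A list of 13 genes held G1 cyclins, their kinases and the CDK-activating complex, and also Ccna2 and Cdc25a. None was 2-fold apart, and the median log2 ratio was 0.072, or -0.070 when FPKM was rescaled to a common total. In the lists that follow, "highest" and "lowest" refer to the log2 ratio of deletion to control and not to the level. Without a pseudocount, rescaling to a common total adds -0.15 to each log2 ratio, and scaling without mitochondrial transcripts adds 0.078, so every list's median moves with these choices. Ccnd1 (cyclin D1) had the lowest ratio, at 1.76 FPKM in control and 0.98 FPKM in deletion HSCs, followed by Ccnd3 (cyclin D3) at 26.2 and 21.9 FPKM. Cdk7, a kinase of the activating complex, had the highest ratio, at 11.9 and 14.3 FPKM, followed by Ccne2 (cyclin E2) at 6.83 and 7.75 FPKM.

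The E2F and DP factors, among them the partners of the pocket proteins, had a median log2 ratio of -0.16. Below 0 were 7 of 10 genes, against 51.6% of all genes, and none was 2-fold apart. The median was -0.31 when FPKM was rescaled to a common total, -0.090 when it was scaled without mitochondrial transcripts, -0.087 with a pseudocount of 5 FPKM and -0.089 with a minimum mean of 5 FPKM. E2f2, an activating E2F, was at 13.2 FPKM in control HSCs and 9.44 FPKM in deletion HSCs. E2f5, a partner of p130, was at 4.04 and 3.03 FPKM. At the other end, E2f6, a repressor that binds no pocket protein, was at 13.3 and 15.9 FPKM, and Tfdp1, which encodes the DNA-binding partner DP1, was at 76.9 and 89.9 FPKM. Summed over E2f1, E2f2 and E2f3, activating E2F mRNA was 49.1 FPKM in control HSCs and 39.3 FPKM in deletion HSCs, or 1.39 and 1.11 times the pocket protein sum. The sum of E2f4 and E2f5, the repressive E2F factors, was 136 and 127 FPKM.

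Of 18 targets of E2F at the G1/S transition, 12 were above 0 and 6 below, against 48.4% and 51.6% of all genes. Their median was 0.092 (-0.053 rescaled to a common total, where the median of all genes was -0.15), and none was 2-fold apart. Rrm2, a subunit of ribonucleotide reductase, had the highest ratio, at 61.0 FPKM in control and 74.6 FPKM in deletion HSCs. Cdc6, which loads the replicative helicase, had the lowest ratio, at 24.7 and 20.9 FPKM, followed by Chaf1a at 15.1 and 13.3 FPKM. Of 10 proliferation markers none was 2-fold apart, and the median was 0.086, or -0.059 rescaled. The ratio was highest for Cdk1 (16.0 and 19.6 FPKM) and Ccnb2 (73.8 and 87.7 FPKM), and lowest for Mki67 (86.3 and 75.1 FPKM) and Plk1 (46.3 and 42.5 FPKM). Both libraries thus held abundant mRNA of mitotic genes beside that of the inhibitors.

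Of 13 MuvB subunits and other partners of pocket proteins, 8 were above 0, where 48.4% of all genes were. None was 2-fold apart, and the median was 0.087 (-0.053 rescaled). The MuvB subunit genes Lin52 and Lin9 had the highest ratios, at 2.57 and 4.30 FPKM for Lin52 and 2.65 and 3.49 FPKM for Lin9, control before deletion. Kdm5a, a histone demethylase first found as an RB-binding protein, had the lowest ratio, at 8.91 and 6.83 FPKM, followed by Mybl2, a partner of MuvB in cycling cells, at 31.6 and 27.1 FPKM.

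Among 14 genes listed for the breakdown of the inhibitors, 10 were above 0, where 48.4% of all genes were. The median was 0.089 (-0.056 rescaled), with none 2-fold apart. The 2 highest ratios belong to genes of the ubiquitin ligase SCF-SKP2, which marks p27 and p21 for the proteasome. Cks1b, its cofactor for p27, was 1.62-fold higher at 94.2 FPKM in deletion HSCs against 58.3 FPKM in control HSCs. Skp1a, its adaptor, was 1.55-fold higher at 68.9 against 44.5 FPKM. Skp2 itself, read out after its value was seen, was at 2.80 against 3.11 FPKM with an interval of -0.36 to 0.050 that included equality. Fbxw7, listed here though it targets cyclin E, was at 3.29 against 4.21 FPKM, and Rnf123, the KPC1 ligase of p27, at 23.8 against 28.9 FPKM.

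Regulators of the inhibitor genes held the only companion gene past 2-fold. Gfi1, a repressor known to act on Cdkn1a and to restrain HSC cycling as well as to drive neutrophil differentiation, was 2.66-fold higher at 14.5 FPKM in deletion HSCs against 5.45 FPKM in control HSCs, and not past 2-fold with a pseudocount of 5 FPKM. Neutrophil lineage markers, given last, differed as well, and their part in this value was not tested. Cebpa, a myeloid transcription factor that also restrains the cycle, followed at 13.6 against 9.28 FPKM. Klf4 had the lowest ratio, at 26.6 against 34.3 FPKM, then Smad4, which carries TGF-beta signals to Cdkn1a and Cdkn2b, at 7.82 against 9.58 FPKM. The list had 7 of 17 genes above 0, where 48.4% of all genes were. Its median was -0.057, or 0.011 with FPKM scaled without mitochondrial transcripts.

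In the p53 axis, 8 of 15 measured genes were above 0, where 48.4% of all genes were, and none was 2-fold apart. The median was 0.012, or -0.13 rescaled and -0.031 with no minimum level. Trp53 had the highest ratio, at 71.5 FPKM in deletion HSCs against 60.8 FPKM in control HSCs, followed by its target Phlda3 at 3.73 against 3.17 FPKM. Trp53inp1 had the lowest ratio, at 2.71 against 4.34 FPKM, and Pmaip1, which encodes NOXA, was at 1.23 against 1.67 FPKM.

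Polycomb genes and their antagonists, which set the state of the Cdkn2a and Cdkn2b locus, had 6 of 15 genes above 0, against 48.4% of all genes. None was 2-fold apart, and the median was -0.085 (-0.23 rescaled to a common total, -0.010 with FPKM scaled without mitochondrial transcripts). Kmt2a, the activating methyltransferase MLL, had the lowest ratio, at 10.1 FPKM in deletion HSCs against 13.8 FPKM in control HSCs, then Pcgf2 at 2.11 against 2.87 FPKM. Eed at 20.2 against 17.7 FPKM and Rnf2 at 11.1 against 9.77 FPKM, subunits of the 2 repressive complexes, had the highest ratios. Bmi1, the subunit best known for silencing Cdkn2a in HSCs, was read out after its value was seen, at 15.8 and 15.7 FPKM.

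Cdkn1c is imprinted and lies in a cluster with Kcnq1ot1, Phlda2, Slc22a18 and Nap1l4. Of 17 imprinted genes 8 had a mean of at least 1 FPKM, 2 of them above 0, against 48.4% of all genes. The median of the 8 was -0.058 (0.013 with FPKM scaled without mitochondrial transcripts), and none was 2-fold apart. Those above 0, Phlda2 and Slc22a18, lie in the cluster of Cdkn1c, but Nap1l4 of the same cluster was level at 101.0 and 101.7 FPKM, and Kcnq1ot1 was at 0.25 and 0.27 FPKM, deletion before control. Phlda2 was at 6.04 FPKM in deletion HSCs against 4.47 FPKM in control HSCs, and Slc22a18 at 3.39 against 2.61 FPKM, with an interval of -0.068 to 0.83 that included equality. Igf2r at 7.05 against 10.2 FPKM and Meg3 at 0.86 against 1.19 FPKM had the lowest ratios. Cdkn3, a phosphatase of CDK2 that shares the symbol and not the family, was at 2.75 against 2.18 FPKM, while Cdkn2aip and Cdkn2aipnl, at 8.26 against 8.71 and 47.1 against 47.6 FPKM, had intervals that included equality, as did that of Cdkn3 (-0.080 to 0.75).

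**Figure D4:**
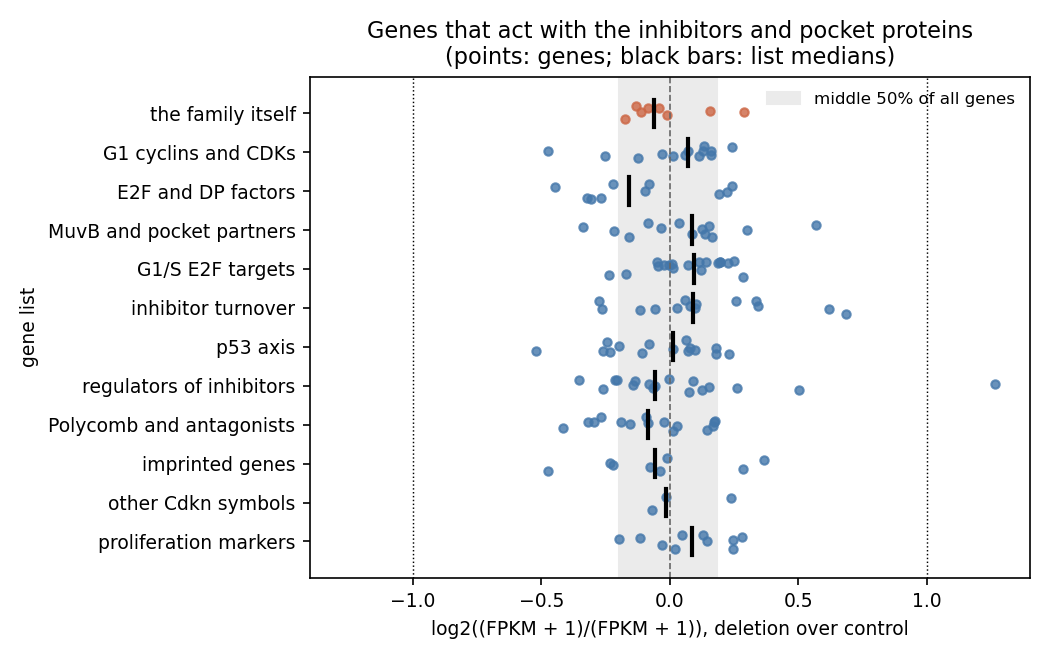
Log2((FPKM + 1)/(FPKM + 1)) ratio, deletion over control, of each gene with a mean of at least 1 FPKM in the family (orange) and in 11 companion lists (blue), with black bars at the medians, a grey band for the middle 50% of all genes and dotted lines at 2-fold. Gfi1, in the list of regulators, is the point past 2-fold at 1.26, and the medians run from -0.16 (E2F and DP factors) to 0.092 (G1/S targets of E2F).

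Markers of several other cell types passed 2-fold, which no inhibitor or pocket protein gene did. Of 8 measured HSC markers 7 were below 0, where 51.6% of all genes were. Their median log2 ratio was -0.17 against -0.011 for all genes, and none was 2-fold apart. In control and deletion HSCs, Hlf was at 12.8 and 10.3 FPKM, Procr at 5.33 and 4.68 FPKM, Ly6a at 4.49 and 2.86 FPKM and Fgd5 at 2.29 and 1.55 FPKM. Counting intervals lay below 0 for 5 of the 8 markers and above 0 for 1, against 30.0% and 26.8% of all genes with whole fragments. Slamf1 (0.40 and 0.55 FPKM) and Hoxb5 (0.35 and 0.15 FPKM) were under 1 FPKM. Of 11 neutrophil lineage genes 4 were 2-fold higher in deletion HSCs (Mpo, Elane, Ctsg and Prtn3) and 5 lower (Ltf, Camp, Lcn2, Ngp and Mmp8). The sum of the 11, which joins both directions, was 3376 FPKM in control and 4011 FPKM in deletion HSCs. Of 5 measured megakaryocyte genes 3 were 2-fold higher, with sums of 56.1 and 148.9 FPKM, and of 7 macrophage and monocyte genes 2 were lower, with sums of 40.3 and 22.8 FPKM. Without the pseudocount 4 of these 7 were 2-fold lower, namely Csf1r (5.89-fold), Adgre1 (3.53-fold), C1qa (2.34-fold) and C1qb (2.10-fold). Vcam1, the 1 of the 7 above 0, was at 3.69 FPKM in control and 5.78 FPKM in deletion HSCs, with an interval of 0.49 to 0.80. Of 7 erythroid genes 4 were below 0 and 1 was 2-fold lower, Alas2 at 4.53 and 1.51 FPKM, while Hbb-bs was at 83.8 and 47.5 FPKM. The erythroid sums were 1824 and 2096 FPKM, and without Car1 (1315 and 1629 FPKM) they were 509 and 467 FPKM. B and plasma cell genes summed to 35.8 and 32.6 FPKM and endothelial genes to 14.4 and 11.8 FPKM, with none 2-fold apart on the log2(FPKM + 1) scale. T and NK cell genes summed to 30.1 and 78.5 FPKM, nearly all of it Nkg7 (29.2 and 78.0 FPKM). No listed marker was at 0 in both libraries, and Ms4a7, Gp1bb, Cd3e, Cd3g, Cd8a and Cdh5 were at 0 in deletion HSCs and under 1 FPKM in control HSCs. The 10 listed HSC markers summed to 103 and 91.2 FPKM, below the neutrophil and erythroid sums in both libraries. How far the levels of the inhibitor and pocket protein genes are those of HSCs was not tested. The part of the other cell types in these values was not tested either.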

How the data were processed

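RNA of sorted HSCs from 2 genotypes, 1 library each, was sequenced as paired-end reads, per the labels' protocols. The authors deposited FPKM per Ensembl gene. The submitters' processing notes list Bowtie 0.12.2 and mm8 without saying what each was used for. How fragments were counted, and on which annotation, is not given in the sources used here. Columns were matched to samples by their descriptions. Symbols came from a gene name list, and exon lengths and GRCm38 positions from GENCODE M21, which held 54494 of 54531 genes. Fragments per gene were recovered from FPKM and exon length, and the recovery and intervals were tested on simulated data.

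A pseudocount of 1 FPKM was added before log2 ratios of deletion to control were taken. Genes with a mean under 1 FPKM were left out of counts, and calls were made at 2-fold. Intervals are Clopper-Pearson for ratios, Poisson for levels and exact conditional odds ratios for pairs of genes (Python 3.11.15, scipy 1.17.1). No test across samples was possible. The members and lists were chosen with earlier results of these data known. Named genes were the members, the 2 highest and 2 lowest measured genes of each companion list, Angptl2 and Cdh5; the rule also named genes of the marker lists, most of which are given as sums, and some genes it named are not reported here. Other genes were named after their values were seen. Alternatives were pseudocounts of 0.1 and 5, other minimum levels, thresholds and scalings (common total, median, trimmed mean, without mitochondrially encoded genes), the mean in place of the median, and fragments divided by 6.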

Additional observations from a re-analysis of the deposited data

How the results depend on the processing

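No member passed 2-fold under any of the alternatives run. The family's median log2 ratio, -0.062, ran from -0.21 with a common total to 0.0098 without mitochondrially encoded genes in the scaling, the setting that turned it above 0. The 4 members whose counting interval excluded equality became 2 (Cdkn2c and Rbl1) in that scaling and 0 with fragments divided by 6. The number of companion genes past 2-fold, 1 of 136, was 0 with a pseudocount of 5 and at 4-fold, and 3 at 1.5-fold. Of all genes, 5.86% passed 2-fold and 11.8% passed 1.5-fold. Of the 8 members, 6 kept their sign under all 6 alternatives for single genes, and Cdkn2d and Rbl2 did not. A common total moved Cdkn1a to -0.32, Cdkn1b to -0.23, Rb1 to -0.28 and Rbl2 to -0.18. Depth limits Cdkn1c, Cdkn2a and Cdkn2b most. No paired analysis was possible because each genotype has 1 library.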

Other observations

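Imprinted genes too low for the comparison included a pair that was scarcer in deletion HSCs, singled out after their values were seen. Dlk1, which encodes a Notch-like surface protein, had 26 fragments (0.26 FPKM) in control HSCs and none in deletion HSCs. Its control value was 8.40 times the limit of 3 fragments set for a count of 0. Counting error in the 26 control fragments is left out of that value. Ndn (necdin), a growth suppressor that binds E2F1 and p53, had 48 and 6 fragments (0.75 and 0.096 FPKM), a log2 ratio without a pseudocount of -2.96 with a counting interval of -4.47 to -1.73. Mest, another low imprinted gene, went the other way, with 34 fragments (0.50 FPKM) in control and 52 (0.78 FPKM) in deletion HSCs. Its counting interval was 0.0070 to 1.33. Fewer genes in all were detected in deletion HSCs, 18217 against 21891. Of 12232 genes with at least 26 fragments in control HSCs, 102 (0.834%) were at 0 in deletion HSCs, and of 11886 such genes in deletion HSCs 12 (0.101%) were at 0 in control HSCs.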
